A study of Mus musculus with 8 samples.

Results

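The collagen genes are those whose symbol in the deposited table of non-normalized intensities reads Col, a number, a and a number, such as Col1a1. This rule gave 36 genes, read by 58 probes, of 18138 gene names and 25697 probes in all. Symbols with further letters, such as Col4a3bp, were not counted. Col6a6 and Col26a1 stand in the table under older names. They were detected on 0 arrays and were not counted either. The mouse gene table of RefSeq lists 44 collagen genes, and the remaining 6 (Col6a3, Col6a4, Col6a5, Col8a1, Col20a1 and Col22a1) were not analysed here.

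The arrays measured total RNA from mouse embryonic fibroblasts (MEFs), connective tissue cells grown out of embryos. Each of 4 groups had 2 arrays: TICAM knockout MEFs given c-di-GMP, TICAM knockout MEFs given DMSO, wild-type MEFs given c-di-GMP and wild-type MEFs given DMSO. Ticam1 encodes TRIF, an adaptor of Toll-like receptor signalling, and bacteria use c-di-GMP as a signal inside their cells, which the host adaptor STING detects. The design set c-di-GMP against DMSO in both genotypes. All cells grew in medium with 10% serum and were exposed for 30 min to a lipofection mix that held c-di-GMP at 8 µg/ml or the same amount of DMSO, and RNA was taken 4 h later. The labels give neither the number of embryos or cell lines behind each genotype nor the kind of deletion. Genotype and cell isolate therefore cannot be told apart. They do not say either that the 2 arrays of a group came from separate cultures, and a p-value here reflects no more than array-to-array spread, part or all of which may be technical.

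Collagens are secreted matrix proteins whose chains wind together into a rope-like helix. Fibrillar collagens assemble into the striated fibrils of connective tissue, and basement membrane collagens form the sheet under epithelia and around vessels and muscle. FACIT collagens decorate fibrils, network collagens build lattices, and others form beaded filaments, anchoring fibrils or membrane-bound proteins. Fibroblasts are the main source of fibrillar collagen in most tissues.

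On 7 of the 8 arrays, 11254 to 11657 probes had a detection p under 0.05 (called detected here). The second knockout DMSO array had 6468, and its correlation with the first was 0.815, against 0.978 to 0.991 between the arrays of each other group. It detected 10 collagen probes, against 18 to 24 on the others. Each comparison is therefore given on all 8 arrays and, without that array, on 7 arrays. There the lone knockout DMSO array is assumed to vary like those of the other groups. Wild-type c-di-GMP array 1 had a mean signal of 252.6 before normalization, against 640.3 on array 2 and 225.9 on the second knockout DMSO array. After normalization it read above array 2 for Col1a1, Col3a1, Col4a1, Col4a2 and Col7a1, and below it for Col1a2, Col5a1, Col5a2, Col12a1 and Col18a1. What its low signal did to these readings was not tested. The probe for Ticam1 differed between knockout and wild type by -0.15 ± 0.32 under c-di-GMP and by 0.14 ± 0.32 under DMSO on the log2 scale (SE, adjusted p of 0.828 and 0.783). Its position relative to the deleted part is not given, so it checks no label. Of 9 fibroblast markers 8 were on the array, and each was detected on at least 2 arrays.

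RefSeq promoter windows (GRCm38.p6, 250 bases before to 50 after a transcription start) were matched by symbol to 29 of the 36 genes, with 32 windows. Col1a1, Col2a1, Col4a3, Col5a2, Col9a3, Col12a1 and Col14a1 had none. The windows of Col4a1 and Col4a2 are shown because these genes lie head to head, both had lower readings in knockout cells, and their windows share 78 bases, chr8:11312777-11312854. The windows of Col1a2 and Col3a1 are shown as those of fibrillar collagens with lower readings in knockout cells, and that of Col6a1 as a collagen that passed no test. Capitals mark the CAAT box CCAAT, the GC box core GGGCGG and the TATA box core TATAAA. Matches on the other strand read ATTGG for the CAAT box, CCGCCC for the GC box and TTTATA for the TATA box, and no match overlaps another. Col4a1 lies at chr8:11312777-11313076 on the minus strand, Col4a2 at chr8:11312555-11312854 on the plus strand, Col1a2 at chr6:4505368-4505667 on the plus strand, Col3a1 at chr1:45311288-45311587 on the plus strand and Col6a1 at chr10:76725995-76726294 on the minus strand, each printed 5′ to 3′ along its gene.
Col4a1: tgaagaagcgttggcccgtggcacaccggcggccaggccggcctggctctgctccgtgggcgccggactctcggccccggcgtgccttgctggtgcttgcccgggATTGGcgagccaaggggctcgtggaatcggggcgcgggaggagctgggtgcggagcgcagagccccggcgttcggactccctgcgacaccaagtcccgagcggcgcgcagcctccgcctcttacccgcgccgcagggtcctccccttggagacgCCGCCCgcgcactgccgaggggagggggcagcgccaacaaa
Col4a2: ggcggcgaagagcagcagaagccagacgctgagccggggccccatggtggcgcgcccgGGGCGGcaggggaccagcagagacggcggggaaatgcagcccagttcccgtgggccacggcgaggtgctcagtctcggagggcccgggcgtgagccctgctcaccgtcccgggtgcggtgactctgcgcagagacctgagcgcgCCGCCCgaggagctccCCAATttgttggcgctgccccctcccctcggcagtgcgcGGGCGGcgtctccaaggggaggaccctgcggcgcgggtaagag
Col1a2: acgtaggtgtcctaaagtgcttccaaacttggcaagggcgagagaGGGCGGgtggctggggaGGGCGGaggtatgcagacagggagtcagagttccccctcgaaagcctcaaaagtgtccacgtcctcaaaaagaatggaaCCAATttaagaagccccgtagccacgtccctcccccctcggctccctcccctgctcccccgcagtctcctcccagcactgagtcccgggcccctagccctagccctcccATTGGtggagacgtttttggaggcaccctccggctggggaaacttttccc
Col3a1: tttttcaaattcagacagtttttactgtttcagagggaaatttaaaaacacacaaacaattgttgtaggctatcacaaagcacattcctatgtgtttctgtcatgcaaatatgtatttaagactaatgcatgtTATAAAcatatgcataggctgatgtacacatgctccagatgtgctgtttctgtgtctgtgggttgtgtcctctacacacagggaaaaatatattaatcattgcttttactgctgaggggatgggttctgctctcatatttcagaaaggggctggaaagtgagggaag
Col6a1: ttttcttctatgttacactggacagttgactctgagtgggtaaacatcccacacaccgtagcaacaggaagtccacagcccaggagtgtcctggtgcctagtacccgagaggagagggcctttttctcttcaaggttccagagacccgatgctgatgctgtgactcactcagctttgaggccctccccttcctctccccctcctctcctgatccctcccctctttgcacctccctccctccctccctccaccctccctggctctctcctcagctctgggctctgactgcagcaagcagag

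The Col4a1 and Col4a2 windows each held the CAAT box 1 time, and the GC box stood 1 time in the Col4a1 window and 3 times in that of Col4a2. The Col1a2 window held the CAAT box 2 times and the GC box 2 times. That of Col3a1 held the TATA box alone, and that of Col6a1 held 0 matches. The window of Col16a1, which passed no test either, is not shown and held the CAAT box 1 time and the GC box 2 times. Over all 32 collagen windows, 12 held the CAAT box, 19 the GC box and 5 the TATA box. Of the 32851 mouse windows of the same length, 37.4% held the CAAT box, 35.7% the GC box and 13.6% the TATA box. These matches describe the letters of the windows and say nothing of factor binding.

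Of the 36 collagen genes, 20 passed the filter of detection on at least 2 of 8 arrays. The best probe of 9 genes was detected on all 8 arrays, and that of 6 (Col4a5, Col5a2, Col5a3, Col6a2, Col12a1 and Col18a1) on every array except the second knockout DMSO array. A further 5 passed on a few arrays. Among these, Col17a1 was detected on both knockout c-di-GMP arrays, and Col23a1 on these and the first knockout DMSO array. Col11a2 was detected on the first array of both knockout groups, so Col17a1, Col23a1 and Col11a2 passed through a single genotype. Col11a1 passed by 2 probes, the brighter detected on the first array of both wild-type groups and the other on the first array of both c-di-GMP groups. Col9a1 was detected on the first knockout DMSO array and the second wild-type DMSO array. The other 16 genes did not pass: 13 were detected on 0 arrays and Col2a1, Col15a1 and Col24a1 on 1 array each.

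**Figure D1:**
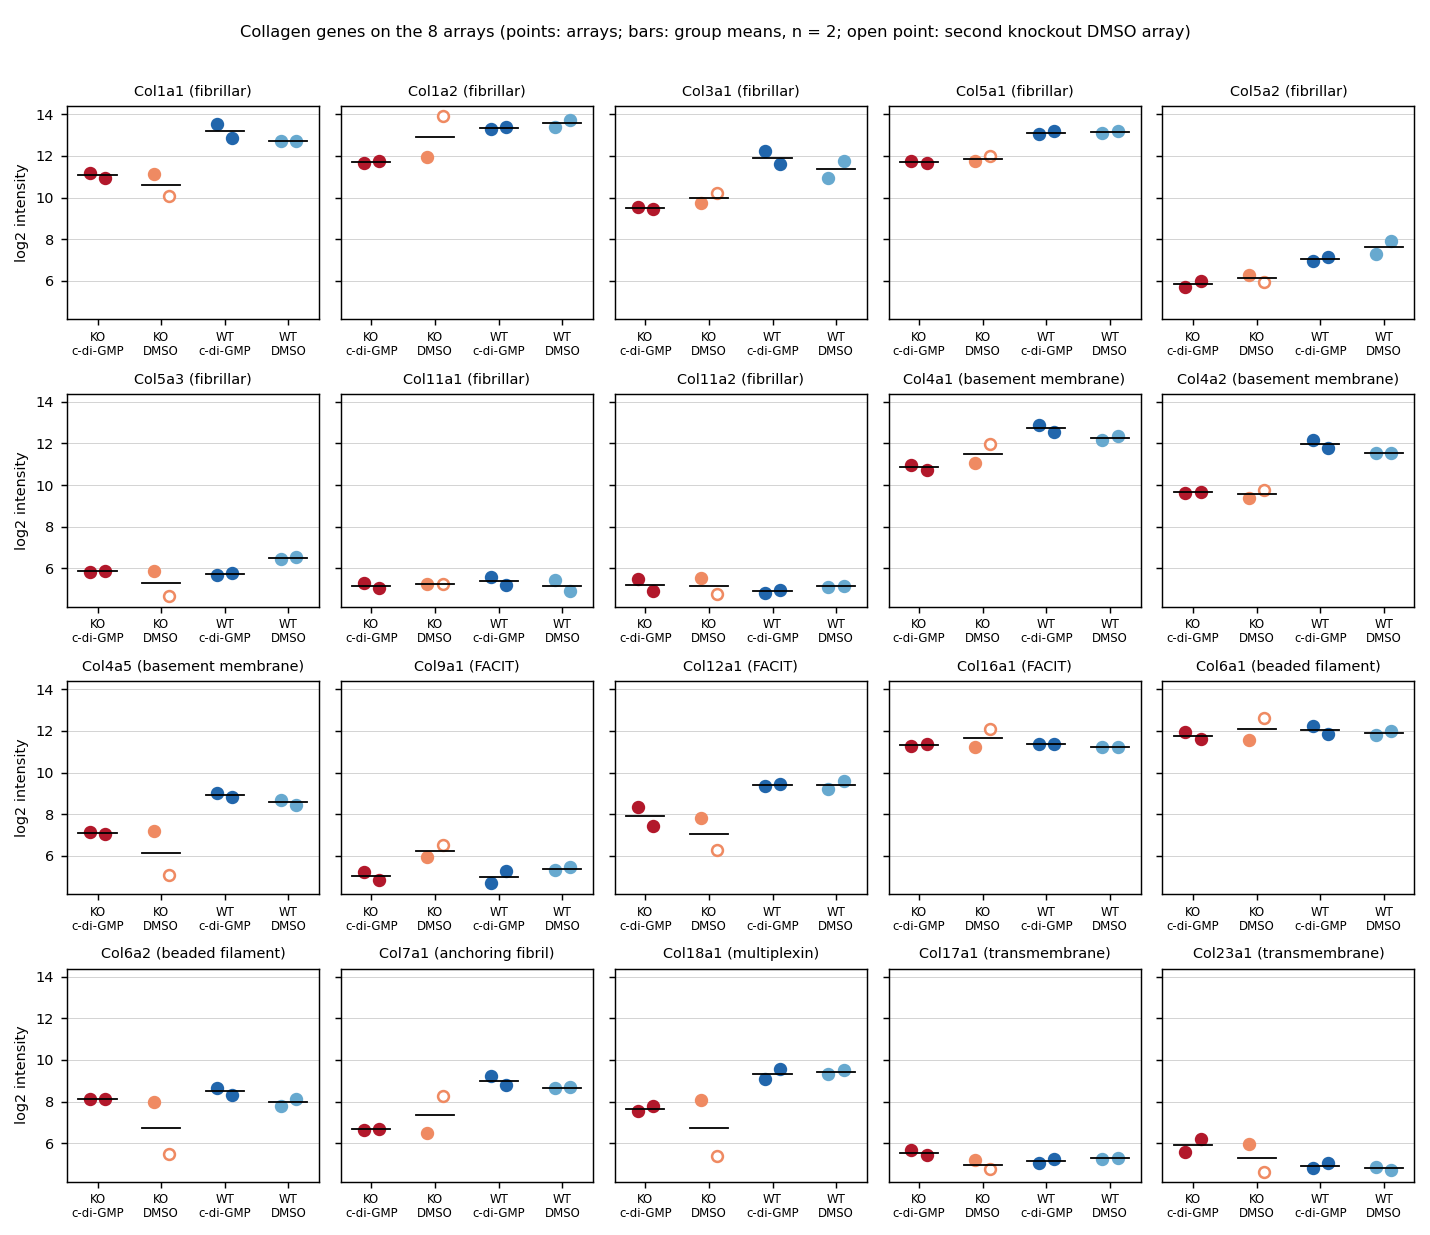
Background-corrected, quantile-normalized log2 intensity of the 20 collagen genes that passed the filter, by group: points are arrays, bars are means of 2 arrays, and the open point is the second knockout DMSO array. Col4a2 read 9.64 and 9.68 on the knockout c-di-GMP arrays against 12.18 and 11.77 on the wild-type c-di-GMP arrays, while Col16a1 read 11.28 and 11.35 against 11.38 and 11.35.

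Knockout cells had lower readings than wild-type cells of Col1a1, Col5a1, Col5a2 and Col4a2 under both treatments, while the bright genes Col16a1 and Col6a1 passed no test. Under c-di-GMP, 7 of the 20 tested collagen genes fell in knockout cells (Col1a1, Col3a1, Col5a1, Col5a2, Col4a1, Col4a2 and Col7a1) and 0 rose. The test was limma with Benjamini-Hochberg adjustment over 9541 genes and a threshold of 0.05, and it called 8.14% of all genes lower and 5.85% higher. Under DMSO, 6 fell (Col1a1, Col5a1, Col5a2, Col4a2, Col4a5 and Col12a1) and 0 rose, where 7.48% of all genes were called lower and 5.24% higher. Both comparisons thus called 4 genes. The share of all genes called lower in both is not given, so joint calls here and below have no background to be read against. In bulk RNA, fewer cells of a type and less RNA per cell cannot be told apart.

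The median log2 difference of the 20 genes was -1.30 under c-di-GMP and -1.22 under DMSO, against 0.10 and -0.11 over all genes tested. On 7 arrays, 11 collagen genes fell under c-di-GMP and 1 rose, where 20.4% of all genes were called lower and 23.5% higher. Under DMSO, 12 fell on 7 arrays and 1 rose, where 13.9% of all genes were called lower and 13.7% higher. The 11 genes called lower under c-di-GMP on 7 arrays were called lower under DMSO as well, and the 12th gene was Col5a3. The genes gained over the fit of all 8 arrays under c-di-GMP were Col1a2, Col4a5, Col12a1 and Col18a1, and the gene that rose in both comparisons was Col23a1. The counts depended on single arrays, and the calls over all genes moved with them. Leaving out 1 array at a time gave 1 to 12 called collagen genes under c-di-GMP, where 3.92 to 44.7% of all genes were called, with 1 without either knockout c-di-GMP array or without wild-type c-di-GMP array 1. Under DMSO it gave 0 to 13, where 2.83 to 64.3% of all genes were called, with 0 without either wild-type DMSO array. Scaling to a common median in place of quantile normalization gave 0 in both on all 8 arrays, where 1.55 and 0.964% of all genes were called, and 7 and 2 on 7 arrays, where 26.7 and 9.95% were called. The collagen share of the array signal was taken before the background correction and normalization applied here. It was 0.229 and 0.220% in knockout c-di-GMP cells and 0.233 and 0.258% in knockout DMSO cells. In wild-type cells it was 0.544 and 0.478% under c-di-GMP and 0.432 and 0.470% under DMSO, so the genotypes did not overlap. Collagen probes were 0.226% of all probes, the share that equal signal on every probe would give, and the knockout arrays lay close to it.

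**Figure D2:**
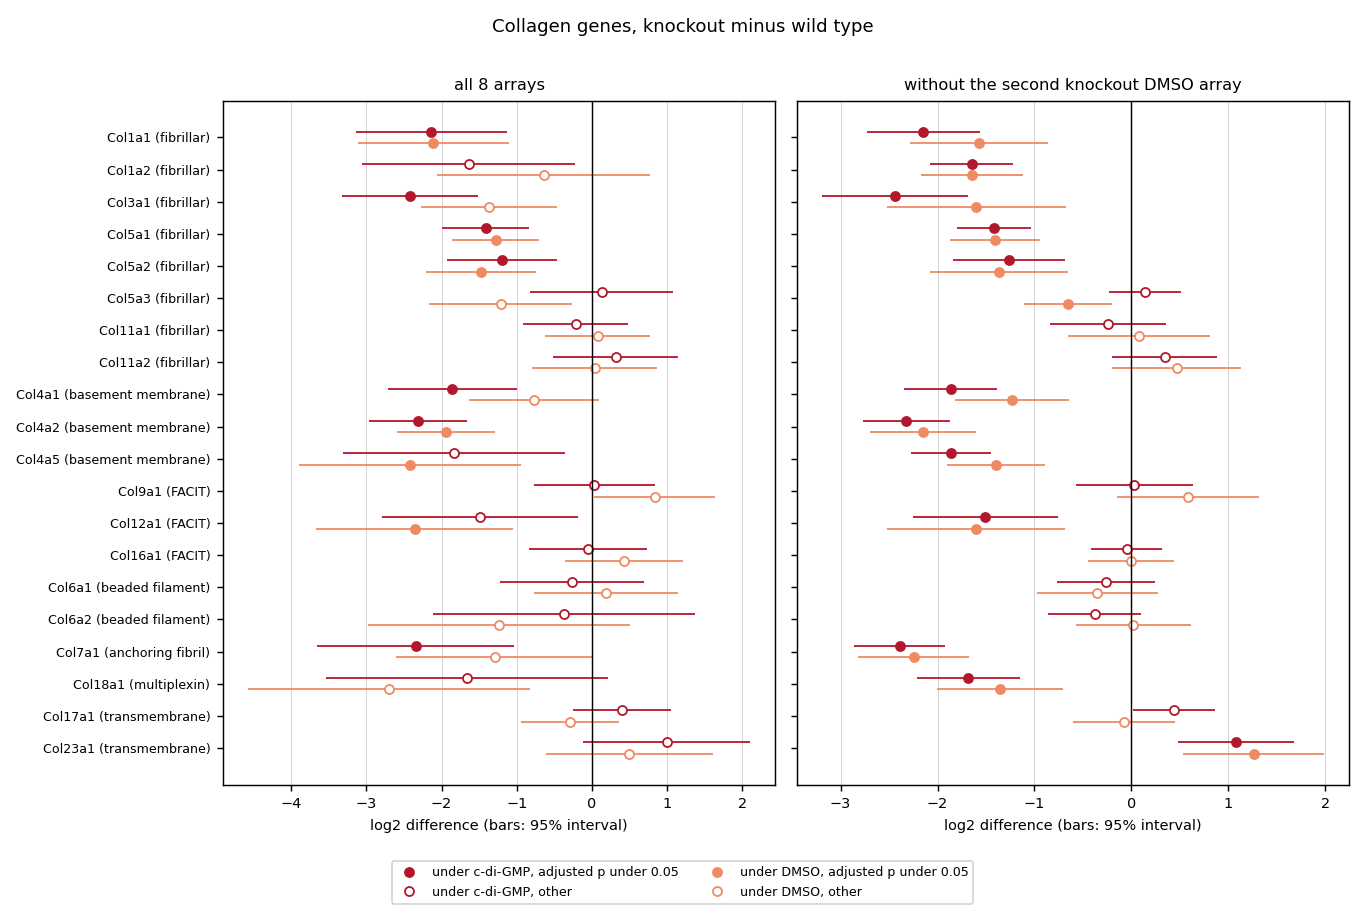
Log2 difference, knockout minus wild type, of the 20 tested collagen genes under c-di-GMP and under DMSO, on all 8 arrays (left) and on 7 arrays, leaving out the second knockout DMSO array (right). Bars are 95% intervals of the limma fit and filled points passed an adjusted p of 0.05: 7 and 6 genes on the left, 12 and 13 on the right.

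The fibrillar collagens had 8 tested members of 11 on the array. Their median difference was -1.30 under c-di-GMP, where 4 fell, and -1.25 under DMSO, where 3 fell, beside 8.14 and 7.48% of all genes called lower. On 7 arrays, 5 and 6 fell, beside 20.4 and 13.9% of all genes.

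Col1a1 encodes the alpha 1 chain of type I collagen, the main fibril protein of skin, bone and tendon. It read 11.17 and 10.96 in knockout c-di-GMP cells, 11.15 and 10.06 in knockout DMSO cells, 13.54 and 12.86 in wild-type c-di-GMP cells and 12.71 and 12.72 in wild-type DMSO cells (normalized log2 intensity, as for all levels that follow). Each knockout array lay below each wild-type array. The difference was -2.14 ± 0.42 under c-di-GMP, a 4.39-fold lower reading (adjusted p = 0.0189), and -2.11 ± 0.42 under DMSO (adjusted p = 0.0228). The error here and below is the SE of the limma fit, with 2 arrays a group. Before normalization, the same probe gave intensities of 2833 and 2866 in knockout c-di-GMP cells and 3209 and 383.0 in knockout DMSO cells. In wild-type cells it gave 6914 and 10047 under c-di-GMP and 8501 and 5329 under DMSO.

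Col1a2 encodes the alpha 2 chain that pairs with the Col1a1 product. Its readings were 11.67 and 11.75 in knockout c-di-GMP cells, 11.93 and 13.91 in knockout DMSO cells, 13.30 and 13.39 in wild-type c-di-GMP cells and 13.39 and 13.73 in wild-type DMSO cells. The second knockout DMSO array alone lay above all wild-type arrays, and the other knockout arrays lay below them. The difference under c-di-GMP was -1.64 ± 0.59 (adjusted p = 0.129) on 8 arrays and -1.65 ± 0.18 (adjusted p = 0.00053) on 7. Under DMSO it was -0.64 ± 0.59 (adjusted p = 0.482) on 8 arrays and -1.64 ± 0.22 (adjusted p = 0.00245) on 7.

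Col3a1, whose product forms the thin fibrils of soft tissues, read 9.54 and 9.44 in knockout c-di-GMP cells, 9.76 and 10.21 in knockout DMSO cells, 12.21 and 11.61 in wild-type c-di-GMP cells and 10.94 and 11.76 in wild-type DMSO cells. The genotypes did not overlap. Col3a1 fell by 2.42 ± 0.38 under c-di-GMP, 5.36-fold (adjusted p = 0.00811), while the difference of -1.36 ± 0.38 under DMSO missed the threshold (adjusted p = 0.0641). On 7 arrays the DMSO difference was -1.60 ± 0.39 (adjusted p = 0.0236). A second, dimmer Col3a1 probe differed by -1.42 ± 0.28 under c-di-GMP (adjusted p = 0.0203), and under DMSO no knockout array detected it while both wild-type arrays did.

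Col5a1 and Col5a2 encode chains of type V collagen, a minor fibrillar collagen that starts type I fibrils and sets their width. Col5a1 read 11.76 and 11.66 in knockout c-di-GMP cells, 11.74 and 11.99 in knockout DMSO cells, 13.06 and 13.18 in wild-type c-di-GMP cells and 13.10 and 13.18 in wild-type DMSO cells. Its 4 knockout arrays lay close together, well below the 4 wild-type arrays. The differences were -1.41 ± 0.24 under c-di-GMP, 2.66-fold lower (adjusted p = 0.0112), and -1.28 ± 0.24 under DMSO, 2.42-fold lower (adjusted p = 0.0192).

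Col5a2 had low readings of 5.72 and 5.98 in knockout c-di-GMP cells, 6.29 and 5.97 in knockout DMSO cells, 6.95 and 7.14 in wild-type c-di-GMP cells and 7.31 and 7.90 in wild-type DMSO cells. The knockout arrays that detected it lay below all wild-type arrays. It fell by 1.19 ± 0.31 under c-di-GMP (adjusted p = 0.0469) and by 1.48 ± 0.31 under DMSO (adjusted p = 0.0257). The second knockout DMSO array did not detect it, and its lowest detected level (7.53) lay above wild-type readings, so its value of 5.97 has no rank. On 7 arrays the difference under DMSO was -1.37 ± 0.30 (adjusted p = 0.0162).

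Col5a3, the third chain gene of type V collagen, did not follow the other members. It read 5.84 and 5.86 in knockout c-di-GMP cells, 5.88 and 4.68 in knockout DMSO cells, 5.67 and 5.77 in wild-type c-di-GMP cells and 6.46 and 6.53 in wild-type DMSO cells. Of the arrays that detected it, the wild-type DMSO arrays stood highest, and the value of 4.68 belongs to the array that did not detect it. Knockout and wild type differed by 0.13 ± 0.40 under c-di-GMP (adjusted p = 0.887) and by -1.21 ± 0.40 under DMSO (adjusted p = 0.0957). On 7 arrays, the difference under DMSO was -0.65 ± 0.19 (adjusted p = 0.0446).

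Col11a1 and Col11a2 encode chains of type XI collagen, the minor fibrillar collagen of cartilage. The readings of the probe standing for each gene lay between 4.78 and 5.58, at the edge of detection, and no comparison called them. The other Col11a1 probe that passed the filter reached 5.63 on knockout c-di-GMP array 1 and 5.69 on wild-type c-di-GMP array 1. Col2a1, the main fibrillar collagen of cartilage, was detected on the second wild-type DMSO array alone, Col24a1 on wild-type c-di-GMP array 1 alone, and Col27a1 on 0 arrays.

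Basement membrane collagen had 3 tested genes of 6 on the array, with median differences of -1.86 under c-di-GMP and -1.95 under DMSO. Of the 3 tested genes, 2 fell in each comparison, where 8.14 and 7.48% of all genes were called lower, and all 3 fell in both on 7 arrays, where 20.4 and 13.9% were. Col4a1 and Col4a2 encode the chains of the common type IV collagen network, and Col4a5 a chain of the kidney and lung basement membranes.

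Col4a2 read 9.64 and 9.68 in knockout c-di-GMP cells, 9.39 and 9.77 in knockout DMSO cells, 12.18 and 11.77 in wild-type c-di-GMP cells and 11.54 and 11.52 in wild-type DMSO cells. Every knockout array lay below every wild-type array. The difference was -2.31 ± 0.27 under c-di-GMP, 4.95-fold lower (adjusted p = 0.00251), and -1.95 ± 0.27 under DMSO, 3.86-fold lower (adjusted p = 0.00627).

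Col4a1, its head-to-head neighbour, read 10.98 and 10.74 in knockout c-di-GMP cells, 11.04 and 11.95 in knockout DMSO cells, 12.90 and 12.53 in wild-type c-di-GMP cells and 12.16 and 12.36 in wild-type DMSO cells. Genotypes did not overlap, though the second knockout DMSO array came close to the wild-type DMSO arrays. The gene fell by 1.86 ± 0.36 under c-di-GMP, 3.62-fold (adjusted p = 0.0183). Under DMSO the difference was -0.77 ± 0.36 (adjusted p = 0.203) on 8 arrays and -1.23 ± 0.25 (adjusted p = 0.0119) on 7.

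Col4a5 gave 7.12 and 7.05 in knockout c-di-GMP cells, 7.20 and 5.10 in knockout DMSO cells, 9.02 and 8.81 in wild-type c-di-GMP cells and 8.67 and 8.46 in wild-type DMSO cells. The value of 5.10 is again a probe not detected on the second knockout DMSO array, and the other knockout arrays lay within a narrow range below all wild-type arrays. The difference was -1.83 ± 0.62 (adjusted p = 0.109) under c-di-GMP and -2.42 ± 0.62 (adjusted p = 0.0498) under DMSO. On 7 arrays these were -1.86 ± 0.17 (adjusted p = 0.000263) and -1.39 ± 0.21 (adjusted p = 0.00412). Col4a3, Col4a4 and Col4a6, the chains of specialised basement membranes, were detected on 0 arrays.

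FACIT collagens had 3 tested genes of 7 on the array, with median differences of -0.05 under c-di-GMP and 0.43 under DMSO on 8 arrays, and -0.05 and -0.01 on 7. The members did not move together. Col12a1, whose product binds the surface of type I fibrils in dense connective tissue, read 8.36 and 7.44 in knockout c-di-GMP cells, 7.81 and 6.28 in knockout DMSO cells, 9.36 and 9.43 in wild-type c-di-GMP cells and 9.21 and 9.60 in wild-type DMSO cells. Its genotypes did not overlap. The difference was -1.49 ± 0.55 (adjusted p = 0.135) under c-di-GMP and -2.36 ± 0.55 (adjusted p = 0.0377) under DMSO. The probe was not detected on the second knockout DMSO array, and on 7 arrays the differences were -1.51 ± 0.32 (adjusted p = 0.0084) and -1.61 ± 0.39 (adjusted p = 0.023).

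Col16a1, a FACIT collagen made by fibroblasts and smooth muscle cells, gave bright and steady readings. These were 11.28 and 11.35 in knockout c-di-GMP cells, 11.20 and 12.07 in knockout DMSO cells, 11.38 and 11.35 in wild-type c-di-GMP cells and 11.21 and 11.21 in wild-type DMSO cells. Apart from the second knockout DMSO array the genotypes overlapped. Under c-di-GMP the difference was -0.05 ± 0.33 with a 95% interval of -0.83 to 0.73 (adjusted p = 0.957). On 7 arrays that interval was -0.41 to 0.32. The third tested member, Col9a1, a collagen of cartilage surfaces, read 5.22 and 4.84 in knockout c-di-GMP cells, 5.93 and 6.53 in knockout DMSO cells, 4.72 and 5.28 in wild-type c-di-GMP cells and 5.31 and 5.48 in wild-type DMSO cells, and was called in no comparison. Col9a2, Col9a3, Col14a1 and Col19a1 were detected on 0 arrays.

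The beaded filament collagens, type VI, had 2 tested genes of 3 on the array, where the remaining gene is the uncounted Col6a6 under its older name. Neither tested gene passed in any comparison on 8 arrays. Col6a1 read 11.94 and 11.61 in knockout c-di-GMP cells, 11.56 and 12.64 in knockout DMSO cells, 12.24 and 11.83 in wild-type c-di-GMP cells and 11.82 and 11.99 in wild-type DMSO cells. Its genotypes overlapped in both treatments. The differences were -0.26 ± 0.40 under c-di-GMP (95% interval -1.22 to 0.69) and 0.19 ± 0.40 under DMSO (95% interval -0.76 to 1.14). On 7 arrays the difference under DMSO was -0.35 ± 0.26 (95% interval -0.97 to 0.27), and with median scaling on 8 arrays it was -1.15, so its sign depended on both. A pair of further Col6a1 probes passed the filter, with differences of -0.61 ± 0.29 (adjusted p = 0.234) and -0.16 ± 0.59 (adjusted p = 0.915) under c-di-GMP.

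Col6a2, whose product joins the Col6a1 chain, read 8.14 and 8.11 in knockout c-di-GMP cells, 7.99 and 5.48 in knockout DMSO cells, 8.68 and 8.32 in wild-type c-di-GMP cells and 7.80 and 8.14 in wild-type DMSO cells. Its value of 5.48 came from the second knockout DMSO array, where it was not detected, and the first knockout DMSO array lay between the wild-type DMSO arrays. The differences were -0.37 ± 0.73 (adjusted p = 0.811) under c-di-GMP and -1.24 ± 0.73 (adjusted p = 0.29) under DMSO. On 7 arrays they were -0.38 ± 0.20 and 0.02 ± 0.25. For Col16a1, Col6a1 and Col6a2 the sign under c-di-GMP depended on the scaling: scaled to a common median in place of quantile normalization, the differences were 0.44, 0.14 and 0.20. The genes called lower under c-di-GMP kept a negative difference there under that scaling.

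Col7a1, the single gene of the anchoring fibrils that tie epidermis to dermis, read 6.65 and 6.69 in knockout c-di-GMP cells, 6.49 and 8.28 in knockout DMSO cells, 9.24 and 8.79 in wild-type c-di-GMP cells and 8.65 and 8.70 in wild-type DMSO cells. Genotypes did not overlap, and the second knockout DMSO array lay nearest to wild type. The gene fell by 2.34 ± 0.55 under c-di-GMP, 5.07-fold (adjusted p = 0.035), and differed by -1.29 ± 0.55 under DMSO (adjusted p = 0.168). Leaving out that array gave a DMSO difference of -2.24 ± 0.24 (adjusted p = 0.00098). Its second probe was detected on no knockout array and on all 4 wild-type arrays, at readings of 5.49 to 5.93 in wild-type cells, and so passed the filter through wild-type arrays alone.

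Col18a1, a multiplexin of vessel and epithelial basement membranes and the precursor of endostatin, read 7.54 and 7.80 in knockout c-di-GMP cells, 8.09 and 5.39 in knockout DMSO cells, 9.08 and 9.59 in wild-type c-di-GMP cells and 9.34 and 9.54 in wild-type DMSO cells. Knockout arrays lay below wild-type arrays throughout, and the second knockout DMSO array did not detect the probe. On 8 arrays neither difference passed: -1.66 ± 0.79 (adjusted p = 0.232) under c-di-GMP and -2.70 ± 0.79 (adjusted p = 0.0726) under DMSO. On 7 arrays they were -1.68 ± 0.22 (adjusted p = 0.00121) and -1.36 ± 0.27 (adjusted p = 0.0121). Col15a1, the other multiplexin, was detected on wild-type c-di-GMP array 1 alone.

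The transmembrane collagens had 2 tested genes of 4 on the array, both detected in knockout cells alone. Col23a1 read 5.60 and 6.23 in knockout c-di-GMP cells, 5.96 and 4.63 in knockout DMSO cells, 4.80 and 5.05 in wild-type c-di-GMP cells and 4.86 and 4.74 in wild-type DMSO cells. Its 3 detected arrays were the highest of the 8. Since no wild-type array detected it, the fold is a bound set by the lowest detected signal, and Col23a1 read at least 1.39-fold higher in knockout cells under c-di-GMP (adjusted p = 0.228). On 7 arrays the bounds were at least 1.43-fold under c-di-GMP (adjusted p = 0.0126) and at least 1.51-fold under DMSO (adjusted p = 0.0237). Because the gene passed the detection filter through knockout arrays, its direction is not independent of that filter. Col17a1, a collagen of hemidesmosomes, read 5.66 and 5.43 in knockout c-di-GMP cells, 5.20 and 4.76 in knockout DMSO cells, 5.04 and 5.26 in wild-type c-di-GMP cells and 5.25 and 5.29 in wild-type DMSO cells, and passed no test. Col13a1 and Col25a1 were detected on 0 arrays.

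Both network collagens on the array, Col8a2 of the corneal and vessel lattices and Col10a1 of hypertrophic cartilage, were detected on 0 arrays, so the class gave no comparison. Col28a1 was detected on 0 arrays as well.

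No collagen gene passed the comparison of c-di-GMP with DMSO on all 8 arrays. In wild-type cells limma called 0 of 20, where 0.597% of all genes were called. At an unadjusted p under 0.05 there were 0 collagen genes, against 641 of all 9541 genes. In knockout cells it called 0 of 20, where 0% of all genes were called. There, 1 collagen gene had an unadjusted p under 0.05, against 254 of all 9541 genes. The 20 differences ran from -0.77 to 0.56 in wild-type cells with a median of 0.13, and from -1.21 to 1.39 in knockout cells with a median of -0.02. On 7 arrays the knockout range was -0.98 to 0.38. Over all genes tested the medians were -0.06 and 0.10. On 7 arrays 1 collagen gene passed in wild-type cells, where 1.81% of all genes were called lower.

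That gene was Col5a3, which read 5.67 and 5.77 in wild-type c-di-GMP cells against 6.46 and 6.53 in wild-type DMSO cells. The treatments did not overlap. The difference was -0.77 ± 0.40 (adjusted p = 0.892) on 8 arrays and -0.83 ± 0.16 (adjusted p = 0.0322) on 7. With the authors' normalized table or with median scaling, no collagen gene passed this comparison on the same 7 arrays. At an unadjusted p under 0.05, the authors' table gave more collagen genes there than the fit reported here, and median scaling gave fewer. No share over all genes stands beside these unadjusted results. In knockout cells Col5a3 read 5.84 and 5.86 under c-di-GMP against 5.88 on the detected DMSO array.

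The bright collagens had intervals that bound their response. The difference of Col5a1, c-di-GMP minus DMSO, was -0.02 in wild-type cells, with a 95% interval of -0.60 to 0.56 on 8 arrays and of -0.40 to 0.36 on 7. That of Col1a1 was 0.48 in wild-type cells, with intervals of -0.52 to 1.48 and of -0.10 to 1.07. Col4a1 differed by 0.46 in wild-type cells, with intervals of -0.41 to 1.32 on 8 arrays and of -0.02 to 0.94 on 7. Col4a2 differed by 0.44, with intervals of -0.21 to 1.10 and of -0.00095 to 0.90. In knockout cells the intervals on 7 arrays were -0.49 to 0.44 for Col5a1, -0.81 to 0.62 for Col1a1, -0.76 to 0.41 for Col4a1 and -0.28 to 0.82 for Col4a2. Each of these intervals included no change as well as changes up to its limits. They rest on 2 arrays a group on 8 arrays, and on a single knockout DMSO array on 7.

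The lowest unadjusted p in knockout cells was that of Col9a1, whose readings are given above. Neither c-di-GMP array detected it, and of the DMSO arrays the first alone did, and the unadjusted p was 0.00975 (adjusted p = 0.529). On 7 arrays, with the detected DMSO array alone, the c-di-GMP reading was at least 1.49-fold lower. Because Col9a1 passed the detection filter through DMSO arrays alone, this direction is not independent of that filter.

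The response to c-di-GMP did not pass a test of difference between the genotypes for any collagen gene. On 8 arrays limma called 0 of 20, where 0.0419% of all genes were called, and on 7 arrays 0 of 20, where 0.503% were called. On 8 arrays 1 collagen gene had an unadjusted p under 0.05, against 506 of all 9541 genes. This was Col5a3, whose response in knockout cells exceeded that in wild-type cells by 1.34 ± 0.56 (adjusted p = 0.71). That value includes the undetected 4.68. On 7 arrays it was 0.80 ± 0.25 (adjusted p = 0.291).

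**Figure D3:**
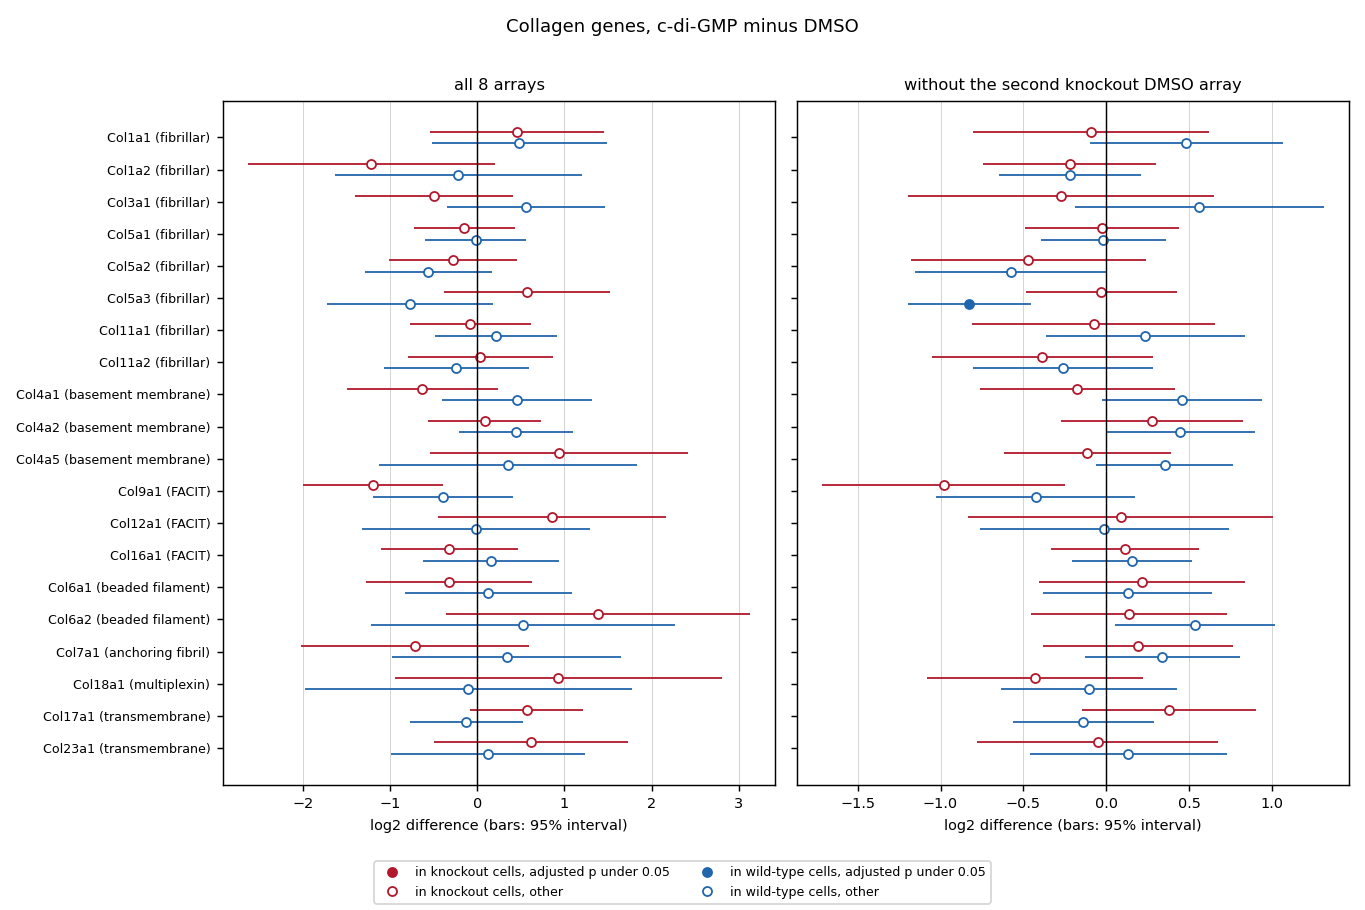
Log2 difference, c-di-GMP minus DMSO, of the 20 tested collagen genes in knockout and in wild-type cells, on all 8 arrays (left) and on 7 arrays, leaving out the second knockout DMSO array (right), with different x scales. Bars are 95% intervals of the limma fit; the only filled point, past an adjusted p of 0.05, is Col5a3 in wild-type cells on the right, at -0.83.

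Genes that make, process and bind collagen were read beside the collagens. Of 29 collagen processing genes on the array, 23 were tested, and 9 fell and 0 rose in knockout cells under each treatment, with medians of -0.95 under c-di-GMP and -0.93 under DMSO. Of all genes, 8.14 and 7.48% were called lower in these comparisons. Called lower under both were P4ha1, Plod2, Plod3, Serpinh1, Bmp1, Adamts2 and Lox. P3h4 and Loxl3 were called lower under c-di-GMP alone, and P4ha2 and Fkbp14 under DMSO alone, a split whose difference was not called in the test between responses. On 7 arrays 14 fell under c-di-GMP and 10 under DMSO, where 20.4 and 13.9% of all genes were called lower. Those called on 7 arrays alone were P3h2, P3h3 and Crtap under c-di-GMP and Loxl1 under DMSO, besides P4ha2 and Fkbp14 under c-di-GMP. P3h2 read 5.66 and 5.53 in wild-type c-di-GMP cells and lay below the lowest detected level on each other array of the 7. The second knockout DMSO array read 8.70, above its lowest detected level of 7.53. On the 7 arrays the direction of P3h2 is therefore not independent of the detection filter.

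Plod2, the lysyl hydroxylase of collagen telopeptides, read 6.78 and 6.81 in knockout c-di-GMP cells, 6.71 and 5.29 in knockout DMSO cells, 10.01 and 9.52 in wild-type c-di-GMP cells and 9.20 and 9.10 in wild-type DMSO cells. The genotypes did not overlap, and the differences were -2.97 ± 0.47 under c-di-GMP (adjusted p = 0.00832) and -3.15 ± 0.47 under DMSO (adjusted p = 0.00776), or -2.49 under DMSO on 7 arrays, without the second knockout DMSO array, which did not detect it. Lox, which cross-links secreted collagen, fell by 1.63 ± 0.35 (adjusted p = 0.0243) and by 2.21 ± 0.35 (adjusted p = 0.00941). Adamts2 and Bmp1, which remove the N- and C-propeptides, fell by 2.15 ± 0.38 and 1.88 ± 0.37 under c-di-GMP. Serpinh1, the collagen chaperone of the endoplasmic reticulum, fell by 1.09 ± 0.24, and P4ha1, a catalytic subunit of prolyl 4-hydroxylase, by 1.07 ± 0.24. P4hb, the shared subunit of that enzyme, differed by -0.08 ± 0.85 (adjusted p = 0.974). It read 12.90 and 12.81 in knockout c-di-GMP cells and 12.89 and 12.98 in wild-type c-di-GMP cells. The spread is shared by all groups, and the knockout DMSO arrays read 12.68 and 9.67.

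Loxl3, another lysyl oxidase, was detected on both wild-type c-di-GMP arrays and on no array of any other group. Its readings were 7.08 and 6.17 in wild-type c-di-GMP cells, against 4.72 and 4.69 in wild-type DMSO cells. In knockout cells they were 4.72 and 4.98 under c-di-GMP, against 4.85 and 4.96 under DMSO. In knockout against wild type under c-di-GMP it read at least 2.34-fold lower (adjusted p = 0.018). In wild-type cells it read at least 2.31-fold higher with c-di-GMP than with DMSO on 8 arrays (adjusted p = 0.0942) and at least 2.44-fold higher on 7 (adjusted p = 0.0148). No array outside the wild-type c-di-GMP group let Loxl3 past the filter, so neither direction is independent of it. No other processing gene passed a treatment comparison.

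Of 5 tested collagen receptors, Itga11, the integrin subunit by which fibroblasts hold fibrillar collagen, was the 1 called on 8 arrays and fell under both treatments, where 8.14 and 7.48% of all genes were called lower. It read 10.06 and 9.88 in knockout c-di-GMP cells, 9.97 and 11.56 in knockout DMSO cells, 13.16 and 13.28 in wild-type c-di-GMP cells and 13.10 and 13.26 in wild-type DMSO cells. Its differences were -3.25 ± 0.49 (adjusted p = 0.00709) under c-di-GMP and -2.42 ± 0.49 (adjusted p = 0.0243) under DMSO. The discoidin receptors Ddr1 and Ddr2 differed by -1.16 ± 0.65 and -1.06 ± 0.51 under c-di-GMP and did not pass on 8 arrays. On 7 arrays all 5 receptors were called under c-di-GMP, where 20.4% of all genes were called lower and 23.5% higher: Itga11, Itgb1, Ddr1 and Ddr2 were lower in knockout cells (adjusted p of 0.00422 for Ddr1 and 0.00372 for Ddr2), and Mrc2, an endocytic collagen receptor, was higher, by at least 1.33-fold, since no wild-type c-di-GMP array detected it (adjusted p = 0.0232). Under DMSO, Itga11 and Ddr1 were called lower on 7 arrays, where 13.9% of all genes were, and Itga11 then differed by -3.23.

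Among 12 tested partners of collagen in the basement membrane, 4 fell under c-di-GMP and 3 under DMSO, and 0 rose, where 8.14 and 7.48% of all genes were called lower. On 7 arrays 7 and 6 fell, where 20.4 and 13.9% of all genes were called lower, and those added were Lamc1 under c-di-GMP, Lamb1 under DMSO, and Nid2 and Hspg2 under both. Agrn, a heparan sulfate proteoglycan, Sparc, a collagen-binding glycoprotein, and Nid1, the link between laminin and type IV collagen, fell in both. Under c-di-GMP these differences were -1.79 ± 0.29 for Agrn, -1.63 ± 0.28 for Sparc and -1.47 ± 0.27 for Nid1 (adjusted p of 0.00883, 0.0105 and 0.0142). The laminin chain Lamb1 fell by 1.62 ± 0.35 under c-di-GMP (adjusted p = 0.0249). Lama4 differed by -0.32 under c-di-GMP and Pxdn, the peroxidasin that cross-links type IV collagen, by -0.0022, and neither passed.

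**Figure D4:**
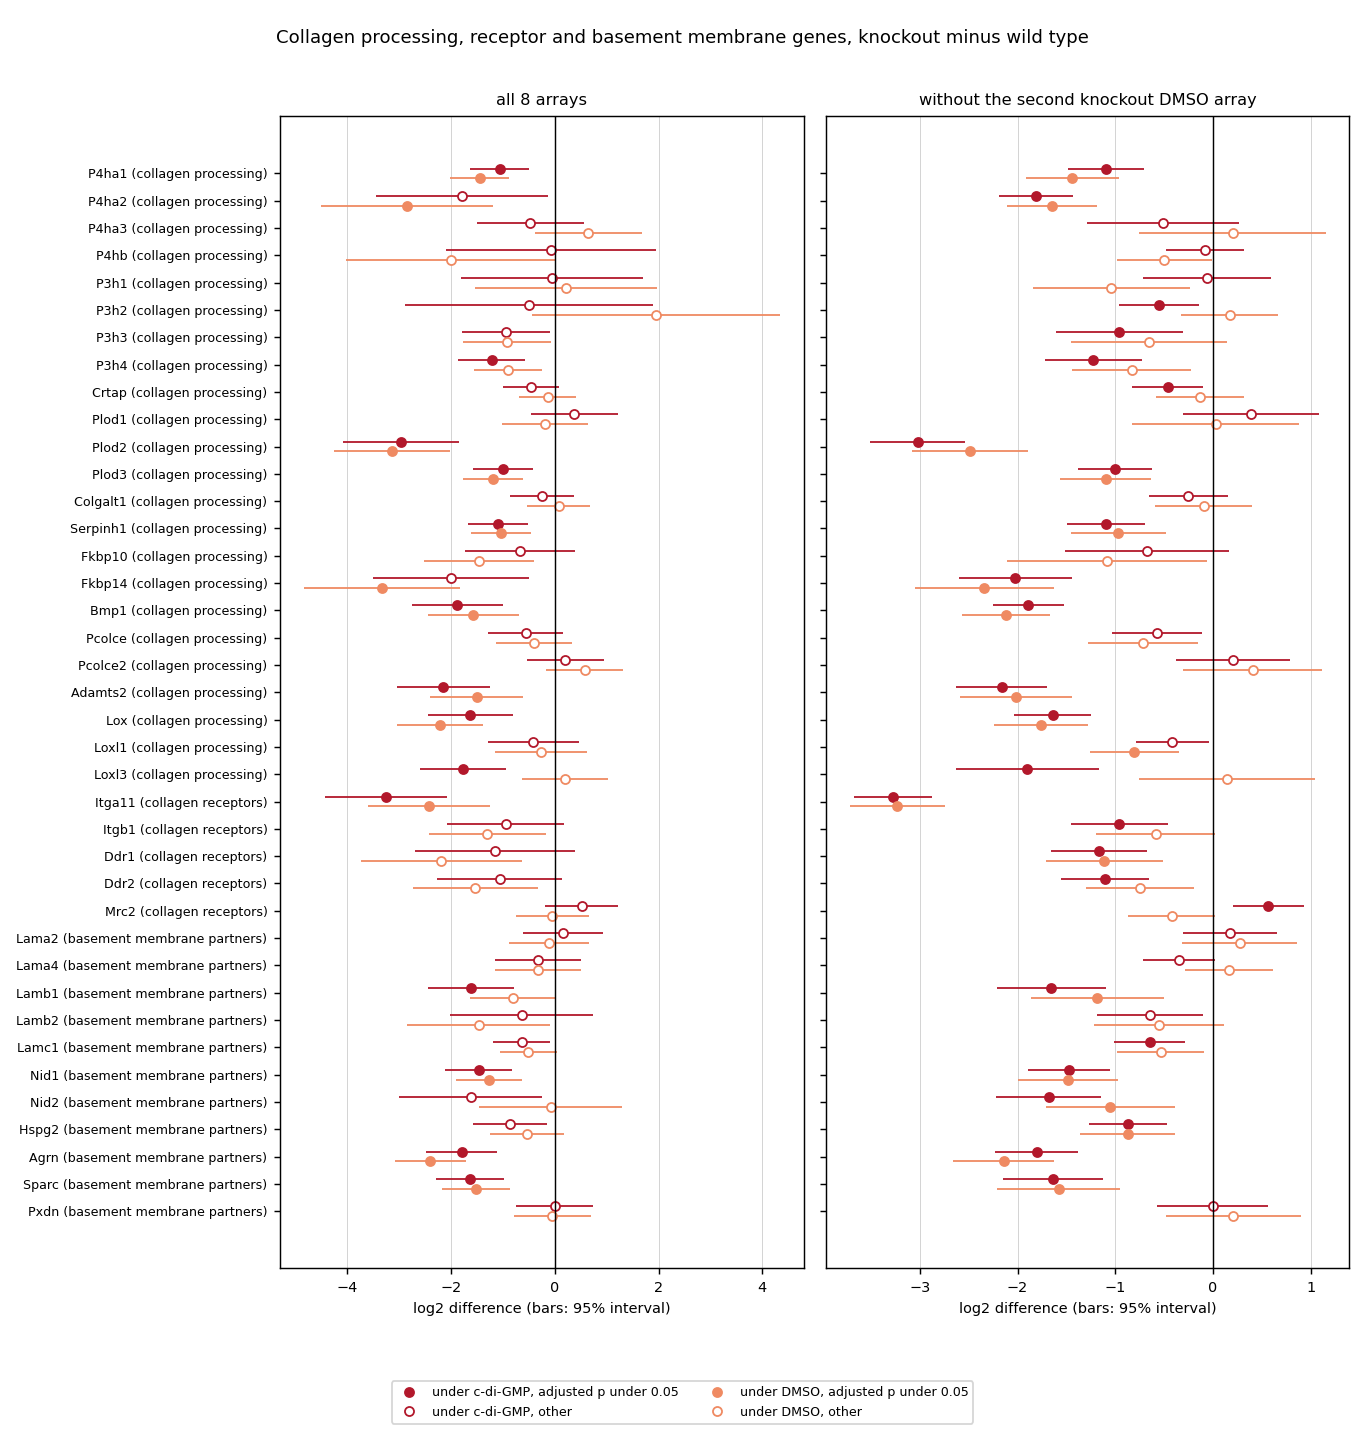
Log2 difference, knockout minus wild type, of tested collagen processing, collagen receptor and basement membrane genes under c-di-GMP and under DMSO, on all 8 arrays (left) and on 7 arrays, leaving out the second knockout DMSO array (right). Bars are 95% intervals, and filled points passed an adjusted p of 0.05, with Itga11 at -3.25 and Plod2 at -2.97 under c-di-GMP the lowest among the filled points of that treatment on 8 arrays.

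Markers of cell types moved with genotype beside the collagens. Of all genes, 5.85% were called higher and 8.14% lower under c-di-GMP, and 5.24 and 7.48% under DMSO. Of 8 fibroblast markers tested, Pdgfra, Thy1 and S100a4 rose in knockout cells under c-di-GMP, by 3.03 ± 0.39, 1.42 ± 0.25 and 1.56 ± 0.30, and Fap fell by 2.12 ± 0.38. Under DMSO, Pdgfra, Thy1, S100a4 and Dcn rose, by 3.06 ± 0.39, 1.32 ± 0.25, 2.12 ± 0.30 and 1.76 ± 0.39, and Fap was at least 2.18-fold lower (at least 5.05-fold on 7 arrays), since no knockout DMSO array detected it. On 7 arrays Lum was called higher as well under both treatments, and Dcn also under c-di-GMP. The larger shares of all genes called on those arrays are given with the collagen counts. The summed linear level of the 8 genes was 27060 to 29630 in knockout c-di-GMP cells, 28090 to 43000 in knockout DMSO cells, 14630 to 15650 in wild-type c-di-GMP cells and 15420 to 15490 in wild-type DMSO cells. Dcn, the bright matrix proteoglycan decorin, made up 31.8 to 60.5% of that sum, most on the second knockout DMSO array. Without Dcn the sum was 16350 to 18170 on the knockout arrays, against 9229 to 10560 on the wild-type arrays. The markers did not move together: Vim and Pdgfrb passed no genotype test.

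Leukocyte markers showed the reverse. Of 6 on the array, Itgam and Ptprc were detected on 0 arrays, and Cd68, Adgre1, Lyz2 and Csf1r passed the filter. Their summed level over all 6 was 178.6 to 202.2 in knockout c-di-GMP cells, 170.9 to 194.3 in knockout DMSO cells, 2499 to 2766 in wild-type c-di-GMP cells and 3215 to 3341 in wild-type DMSO cells. Lyz2 and Adgre1 were detected on no knockout array and under c-di-GMP their knockout readings were lower by at least 42.4-fold (Lyz2) and at least 14.7-fold (Adgre1). Both passed the detection filter through wild-type arrays alone. On 7 arrays, with the larger share of all genes given above, Csf1r was called lower too under c-di-GMP. The part of these cell-type markers in the collagen differences was not tested. Cartilage, bone, endothelium and epithelium markers had 2, 2, 2 and 1 members past the filter, of which Sox9 and Acan are described among the other observations.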

How the data were processed

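RNA from 8 MEF samples was read on Illumina bead arrays. The authors' export from GenomeStudio 2010.2 (named in the submitters' processing notes) holds the intensity of each probe before normalization. Per the file headers, every intensity has its own detection p-value. The background handling before export and the method behind the authors' deposited normalized table of intensities are not given in the sources used here. That table and the series' own value table differ in 0 cells. Groups and replicate numbers come from the sample titles.

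limma 3.58.1 (R 4.3.3) turned signals into log2 values with neqc: normexp correction fitted by detection p, an offset of 16 and quantile normalization. Probes detected (p under 0.05) on 2 or more of 8 arrays numbered 13026, and the brightest such probe stood for each of 9541 genes. Gene symbols were updated through the mouse RefSeq table. A limma model with 1 mean per group and no other term gave two-sided tests, adjusted by Benjamini-Hochberg over all 9541 genes, with a threshold of 0.05. The residual degrees of freedom were 4 on 8 arrays and 3 on the 7 arrays left without the second knockout DMSO array, which were normalized anew with the same probes. Where every array of a group had a detection p of 0.05 or more, the fold is a bound ("at least"), for which each array of the undetected group takes its lowest detected signal, or the probe's value if that is higher. The fit was tested on simulated data with known changes. The simulation gave all arrays of a gene the same spread, so it held no array like the second knockout DMSO array.

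The members and gene lists were chosen with earlier results of these data known. Any collagen gene could be named. Values on every array are given for members called in any comparison on 8 or 7 arrays and for the 3 brightest tested of each class, and of the other lists the called members are named, except 1 tested gene of these lists that is counted but not reported here. The alternatives tried were the authors' deposited normalized table, median scaling, no background correction, other detection filters, every probe as its own feature, array weights, the replicate number as a block and leaving out each array. Arrays with the same replicate number did not deviate together: the correlations of their deviations were -0.0258 to 0.0645, so the numbers were not taken to pair arrays.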

Additional observations from a re-analysis of the deposited data

How the results depend on the processing

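Counts of collagen genes past the threshold depended on the arrays and on the scaling. The genes called lower in knockout cells under c-di-GMP kept a negative difference in each of the 18 settings that give 1 value a gene. Several of these settings tested that sign little or not at all. Array weights and the replicate block left the collagen median at -1.30. Leaving out a DMSO array acted on this comparison through renormalization alone. The authors' table and median scaling gave equal differences with and without the second knockout DMSO array. Under c-di-GMP (7 as reported) median scaling gave 0 and array weights 12, and under DMSO (6 as reported) both gave 0. Of all genes, median scaling called 1.55 and 0.964% in these comparisons and array weights 42.1 and 2.87%. At an unadjusted p under 0.05, median scaling left 3 and 11 collagen genes. That scaling moved the median of all genes to 0.46 under c-di-GMP and to -0.63 under DMSO, and the collagen medians to -0.92 and -1.83. The array weights were 0.109 for both knockout DMSO arrays. Alternatives chosen after seeing the data left out the second knockout DMSO array as well. With the authors' table the collagen median was then -0.86 under c-di-GMP and -0.84 under DMSO. With median scaling it was -0.92 and -0.95, and with every probe -0.62 and -1.02. In the same order the medians over all features were 0.06 and 0.03, 0.46 and 0.31, and 0.12 and 0.07. For c-di-GMP in wild-type cells the collagen medians were 0.08, -0.0053 and 0.13, against 0.13 on those 7 arrays as reported. Leaving out 1 array at a time gave 1 to 12 under c-di-GMP and 0 to 13 under DMSO, 0 to 1 for c-di-GMP in wild-type cells, 0 to 14 in knockout cells and 0 to 13 for the difference between responses. Over all genes the same fits called 3.92 to 44.7%, 2.83 to 64.3%, 0 to 5.95%, 0 to 57.7% and 0 to 48.7%. Without either knockout c-di-GMP array, or without wild-type c-di-GMP array 1, the count under c-di-GMP was 1, and without wild-type c-di-GMP array 2 it was 2. Without either wild-type DMSO array it was 3 under c-di-GMP and 0 under DMSO. The 14 and 13 arose where the poorly detected array was the single knockout DMSO array left. Under DMSO, leaving out either knockout c-di-GMP array gave 1, and leaving out either wild-type c-di-GMP array gave 3. The fit with the replicate number as a block gave 5 and 5 for the genotype comparisons, against 7 and 6, and 0 for the others. Of all genes it called 11.2 and 9.89% in the genotype comparisons and 0 to 0.126% in the others. The cause of these shifts was not tested. In the median over genes, the SE under c-di-GMP was 0.376 on 8 arrays and 0.203 on 7. Signals near the lowest detected level bound what could be seen for Col5a2, Col5a3, Col9a1, Col11a1, Col11a2, Col17a1 and Col23a1.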

Other observations

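Sox9, the transcription factor that drives cartilage collagens, rose in knockout cells. It read 7.81 and 7.82 in knockout c-di-GMP cells, 7.75 and 7.40 in knockout DMSO cells, 5.55 and 5.02 in wild-type c-di-GMP cells and 5.14 and 5.19 in wild-type DMSO cells. The difference was 2.53 ± 0.29 under c-di-GMP (limma, adjusted p = 0.00205). Under DMSO, where no wild-type array and of the knockout arrays the first alone detected it, Sox9 read at least 5.49-fold higher on 7 arrays (adjusted p = 0.000678). Acan, the only other cartilage marker tested, went the other way under c-di-GMP, near the lowest detected level. It read 4.81 and 5.12 in knockout c-di-GMP cells against 5.69 and 5.46 in wild-type c-di-GMP cells, and no genotype comparison called it. Col2a1 was detected on 1 of the 8 arrays, Col10a1, Col9a2 and Col9a3 on 0, and the cartilage matrix genes Chad, Cnmd, Matn1 and Matn3 on 0. Tagln, an actin-binding gene of smooth muscle and contractile fibroblasts, fell by 1.78 ± 0.28 under c-di-GMP and by 1.34 ± 0.28 under DMSO (adjusted p of 0.00856 and 0.0274), and Des, the muscle filament desmin, was called lower under DMSO alone (adjusted p = 0.0391), where no knockout array detected it and no fold can be bounded on 8 arrays. Acta2 differed by -0.17 ± 0.84 under c-di-GMP (adjusted p = 0.935). It read 14.63 and 14.70 in knockout c-di-GMP cells and 14.91 and 14.76 in wild-type c-di-GMP cells. The knockout DMSO arrays, which enter the shared spread, read 14.43 and 11.45.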
